A study of Sus scrofa with 6 samples.

Results

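Meiotic cell cycle and chromosome segregation genes were examined in metaphase II oocytes of adult and prepubertal pigs. The members were chosen by gene symbol alone: cyclins, cyclin-dependent kinases (CDKs) with their inhibitors and partners, CDC genes other than those beginning CDC42, Aurora and Polo-like kinases, subunits of the anaphase-promoting complex (APC/C), spindle checkpoint genes, centromere proteins, and subunits of cohesin and condensin. The rule found 94 probe sets of 72 genes, out of 23999 probe sets that were not array controls, of which 10069 carried a single gene symbol (6765 genes). A further 6 probe sets listed a matching gene together with another gene and were left out. The platform annotation gave no single-symbol probe set for 10 of the 31 regulators listed for description, among them CDK1, MOS, BUB1, BUB1B, TTK and REC8, so these were not analysed here.

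The study compared 2 groups of Sus scrofa oocytes, each measured on 3 Affymetrix arrays that the labels call biological replicates. Adult oocytes came from sows and are described in the labels as developmentally competent, and prepubertal oocytes came from gilts and are described as incompetent. In both groups oocytes were taken from ovarian follicles of 2 to 6 mm, matured in culture for 42 to 44 h, stripped of cumulus cells and checked for the first polar body. The labels do not state how many oocytes or animals were pooled for an array, and the p-values cover no more than the variation among these 6 arrays.

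A fully grown oocyte waits in prophase of meiosis I and resumes division when CDK1 bound to cyclin B becomes active. WEE1-type kinases hold CDK1 inactive by phosphorylation, and CDC25 phosphatases remove that phosphate. The APC/C then marks securin and cyclin B for destruction, so that cohesin is cut and homologous chromosomes part, after which the oocyte stops again at metaphase II with high CDK1 activity until fertilization. Transcription is largely silent during this time, so an egg works from stored mRNA whose poly(A) tails lengthen and shorten. The RNA was captured here by its poly(A) tail, and in such bulk samples fewer oocytes, less RNA per oocyte and shorter tails cannot be told apart.

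The arrays differed in overall level as deposited, with trimmed mean signals of 121 to 160 in adult and 105 to 131 in prepubertal samples. The deposited values therefore gave a median log2 difference (prepubertal minus adult) of -0.20 over all 12000 tested probe sets, against -0.01 after quantile normalization, which gives every array the same distribution of values. Values and differences below are after quantile normalization unless said to be as deposited, and differences are on the log2(signal + 16) scale, which understates the change of dim probe sets. Of 7 measured oocyte markers 6 were above the brightness filter, among them ZP2 at 1265 to 1932, ZP4 at 2014 to 2948 and GDF9 at 208 to 407 on all 6 arrays, and KIT was below it at 2.67 to 40.4. Of 15 measured cumulus and granulosa markers 10 fell below the brightness filter, including FSHR, CYP19A1 and STAR, and the summed signal of the list was 375 to 391 in adult and 330 to 414 in prepubertal samples. Those above the filter were INHBA (89.9 to 123 over the 6 arrays), FST (92.6 to 123), HSD3B1 (29.0 to 45.8), INHA (22.85 to 62.3) and LHCGR (0.976 to 31.2). Summed oocyte markers were 4604 to 5315 in adult and 5567 to 5906 in prepubertal samples, but single markers differed in sign, with ZP2 at 0.35 and ZP4 at 0.23 and GDF9 at -0.31 and POU5F1 at -0.36, none past an adjusted p of 0.05. Summed markers were 140 to 166 and 102 to 155 for theca and stroma, 274 to 408 and 212 to 408 for blood and immune cells, and 93.4 to 134 and 96.6 to 137 for endothelium, and their part in the differences below was not tested. The only blood and immune marker above the filter was HBB, at 155 to 361 over the 6 arrays.

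No cell cycle or chromosome segregation gene passed the test for a difference between eggs of the 2 ages after quantile normalization. Of the 94 probe sets 75, for 62 genes, passed the filter on dim signals and were tested. In limma's moderated test none of the 75 passed an adjusted p of 0.05, where 0.117% of all tested probe sets did. The condensin subunit gene NCAPD3 came closest, with higher values in prepubertal eggs (adjusted p = 0.052). As deposited 1 of the 75 passed, the APC/C subunit gene ANAPC4 with lower values (adjusted p = 0.0466), against 0.475% of all tested probe sets.

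At an unadjusted p under 0.05, 7 of the 75 had higher values in prepubertal eggs (5.05% of all tested probe sets did) and 5 had lower values (5.81%). The former were NCAPD3, BUB3, CENPH, CDC25B, SMC4, CDK7 and CKS2, and the latter ANAPC4, PLK3, RAD21, CDC5L and PKMYT1. As deposited, 1 of the 75 had higher values at that level (1.14% of all tested) and 12 had lower values (13.6%). The 3 arrays of each age did not overlap for 6 probe sets with higher values (7.54% of all tested) and 5 with lower values (8.77%). As deposited these counts were 1 (1.81% of all tested) and 11 (17.1%). Of the 75 differences 40 lay below 0 after quantile normalization (51.1% of all tested), a split that the scaling itself sets close to even over all probe sets. As deposited, 55 of the 75 lay below 0 (74.8% of all tested). The median difference was -0.02 over the 75 and -0.01 over all tested probe sets, or -0.20 in both as deposited.

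The 95% interval of the difference, unadjusted for the number of genes, lay within 1.5-fold either way for 30 of the 75 and within 2-fold for 64. Over all tested probe sets the shares were 34.8% and 85.2%. With deposited values the counts were 15 and 62 of the 75, and the shares over all tested probe sets were 14% and 79.7%. These folds are of signal + 16 and are smaller than those of the signals for dim probe sets: with an added constant of 1, the dim CDC45 probe set moved from -0.59 to -1.50 and ANAPC5 from -0.59 to -1.12. The median standard error was 0.27 for the 35 probe sets with a mean signal under 100 and 0.12 for the 13 over 1000. The fit itself lets the variance follow brightness. No member over 1000 differed by more than 0.24 on the log2 scale after quantile normalization, a size reached by CENPO, which was at -0.50 as deposited.

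**Figure D1:**
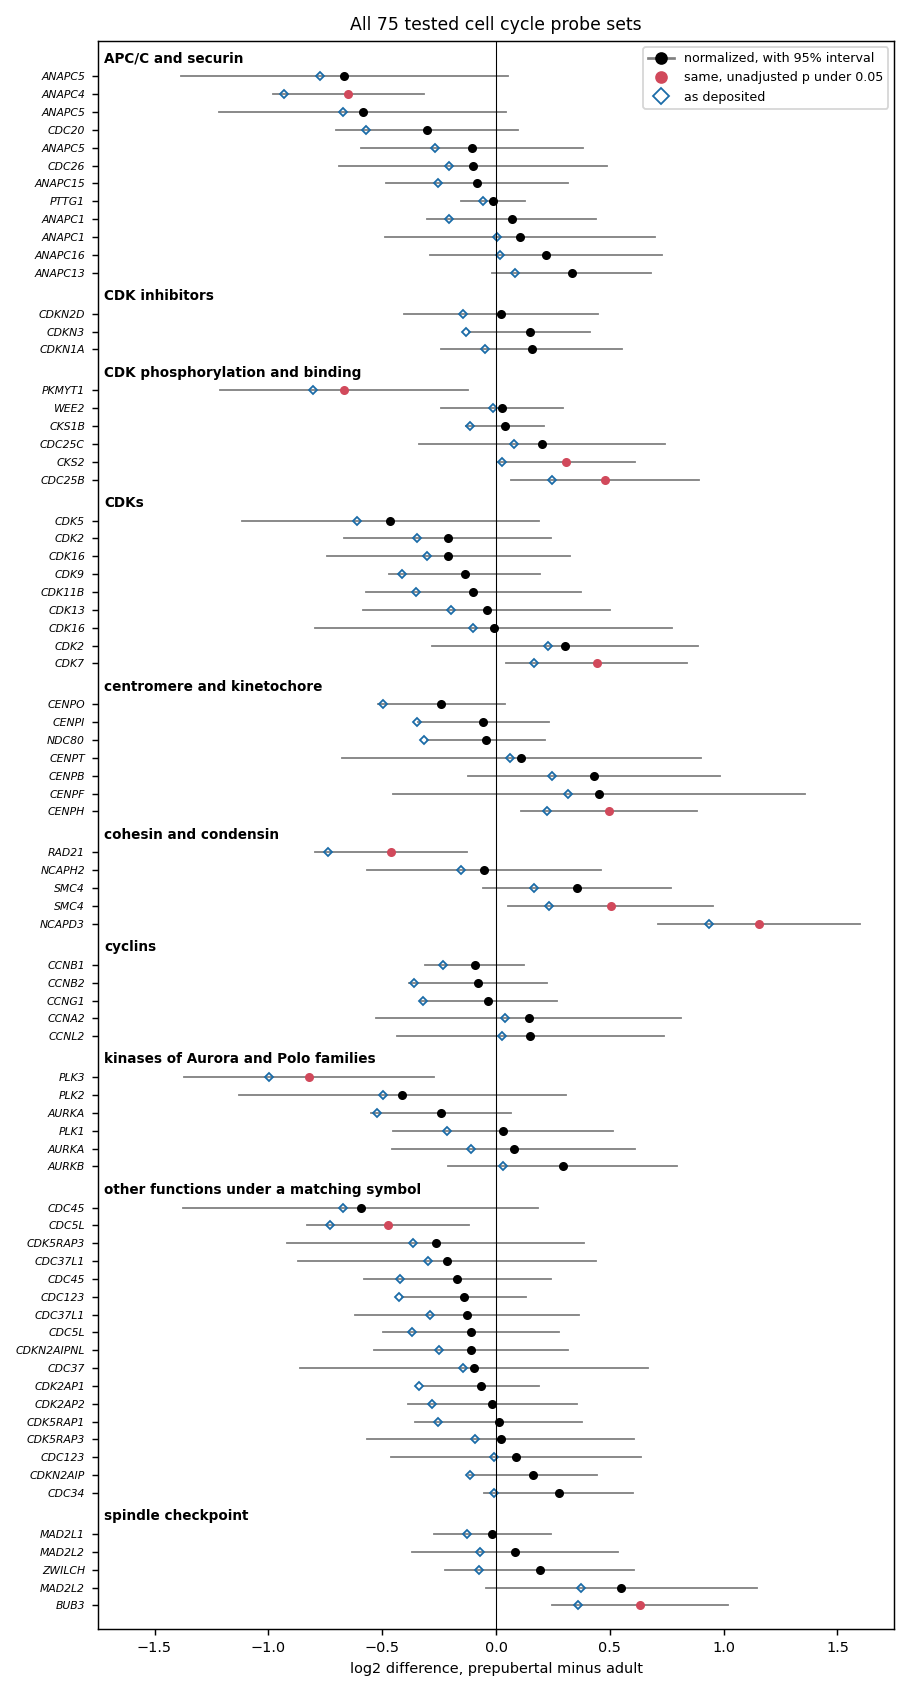
Log2 difference (prepubertal minus adult) of all 75 tested probe sets, grouped by role; filled circles are quantile-normalized values with their 95% interval, red where the unadjusted p was under 0.05, and open diamonds are values as deposited. The diamonds lie to the left of the circles, by the shift in overall array level, and NCAPD3 is the only circle beyond 1.0.

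**Figure D2:**
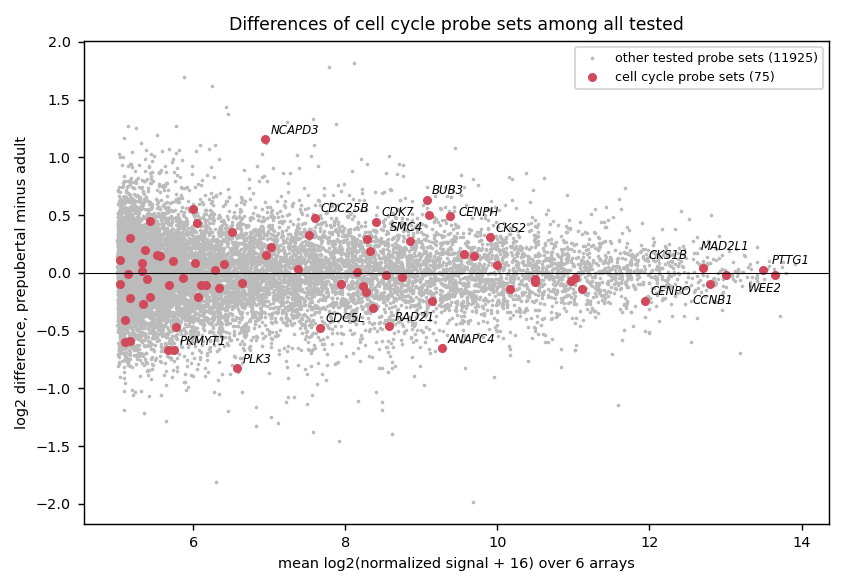
Log2 difference (prepubertal minus adult) against the mean log2(normalized signal + 16) over 6 arrays, with the 75 cell cycle probe sets in red among the other tested probe sets in grey. The cell cycle probe sets scatter about 0, and the brightest, such as PTTG1 and WEE2, lie close to 0.

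Cyclins are the activating partners of CDKs, and none of their 5 tested probe sets differed by more than 0.15 on the log2 scale. CCNB1, the cyclin that drives entry into M phase with CDK1, had normalized signals of 7957, 7087 and 6980 on adult replicates 1, 2 and 3 and of 7957, 6219 and 6534 on prepubertal replicates 1, 2 and 3. The groups overlapped, and replicate 1 was the brightest array of both. The difference was -0.09 ± 0.10 (SE; adjusted p = 0.769), with a 95% interval that reached at most 1.24-fold. It was -0.23 as deposited, with a 95% interval from -0.56 to 0.10. CCNB2, the second B-type cyclin, had 1247, 1402 and 1777 in adult and 1373, 1268 and 1508 in prepubertal eggs, again overlapping (-0.08 ± 0.14, adjusted p = 0.879). CCNA2, a cyclin of S and G2 phase, was dim, with 16.4 to 40.5 in adult and 16.9 to 48.8 in prepubertal eggs, and replicate 3 was the lowest array in both groups. Of the other tested cyclins, CCNG1 had a difference of -0.03 and CCNL2, a cyclin linked to splicing, one of 0.15. CCND2 and CCNG2 stayed below the filter, with no signal above 18.3.

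The CDKs on the array served mostly in interphase or in transcription. Of their 9 tested probe sets, for 7 genes, 7 lay below 0, where 51.1% of all tested did. Their median difference was -0.10 (-0.30 as deposited). CDK7, the kinase of the CDK-activating complex that is also part of the transcription factor TFIIH, had 221, 311 and 298 in adult and 321, 359 and 467 in prepubertal eggs. Every prepubertal array was above every adult array, by a difference of 0.44 ± 0.18, which did not pass the test (adjusted p = 0.40; 0.17 as deposited). CDK2, a kinase of S phase, had tested probe sets that pointed opposite ways, at 0.30 and -0.21 (adjusted p = 0.71 and 0.74). CDK9, which releases paused RNA polymerase II, had 1067 to 1470 in adult and 966 to 1275 in prepubertal eggs (-0.14, adjusted p = 0.779). CDK5, an atypical CDK best known from neurons, had a difference of -0.46 (adjusted p = 0.596), with prepubertal replicate 3 at 12.9 and the other arrays between 33.3 and 54.0.

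Kinases and phosphatases that set the phosphorylation of CDK1 had differences of both signs. WEE2, the oocyte form of the inhibitory kinase, had 10450, 12474 and 11294 in adult and 9166, 13342 and 12693 in prepubertal eggs. The prepubertal arrays spread around the adult ones, and the difference was 0.03 ± 0.12 (adjusted p = 0.96). It was -0.01 as deposited and 0.25 with a common trimmed mean. PKMYT1, the membrane-bound kinase that inhibits CDK1, had 62.1, 53.9 and 41.0 in adult and 15.8, 30.4 and 36.6 in prepubertal eggs. All prepubertal arrays lay below all adult arrays, with a difference of -0.67 ± 0.25 that did not pass (adjusted p = 0.362). These were low signals, and the smallest gap between the groups was from 36.6 to 41.0. WEE1, the somatic form, stayed below the filter, at 0.784 to 17.7.

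CDC25B, the phosphatase that starts CDK1 activation in oocytes, had 155, 180 and 119 in adult and 229, 177 and 240 in prepubertal eggs. Prepubertal replicate 2 lay just under the highest adult array, and the difference of 0.48 ± 0.19 did not pass (adjusted p = 0.389; 0.25 as deposited). CDC25C, its relative, was dim, at 18.1 to 28.6 and 20.6 to 33.2 (0.20, adjusted p = 0.814). CKS1B and CKS2 encode the small subunits that help CDKs bind phosphorylated substrates. CKS1B had 6534, 6930 and 6219 in adult and 6827, 6827 and 6562 in prepubertal eggs, with an interval of at most 1.16-fold (0.04 ± 0.08, adjusted p = 0.891). CKS2 had 802, 977 and 773 against 1185, 923 and 1063, which overlapped in 1 array, with a difference of 0.31 ± 0.14 (adjusted p = 0.453) that was 0.03 as deposited.

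Inhibitors of CDKs were mostly dim in these eggs. CDKN3, a phosphatase that acts on CDKs, had 765 to 777 on all adult arrays and 772 to 913 on the prepubertal ones (0.15, adjusted p = 0.69). CDKN1A, which encodes p21, had 88.4 to 124 and 104 to 125 (0.16, adjusted p = 0.802), and CDKN2D had 54.8 to 67.3 and 54.7 to 75.2 (0.02). All 3 probe sets of CDKN1B, which encodes p27, and those of CDKN2B and CDKN2C fell below the filter. In 1 CDKN1B probe set the adult arrays read 2.09, 1.12 and 1.03 and the prepubertal arrays 10.9, 6.72 and 22.8. The single CDKN2B probe set read 3.36, 2.31 and 2.67 in adult and 1.64, 1.38 and 1.77 in prepubertal eggs. Both are named after their values were seen: the groups did not overlap in either and the directions were opposite, while the 2 other CDKN1B probe sets overlapped. Of the 19 untested members 4 did not overlap, 2 in each direction, and no test was made at such low signals. No share over all probe sets below the filter is given, so this count has no background to be read against.

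**Figure D3:**
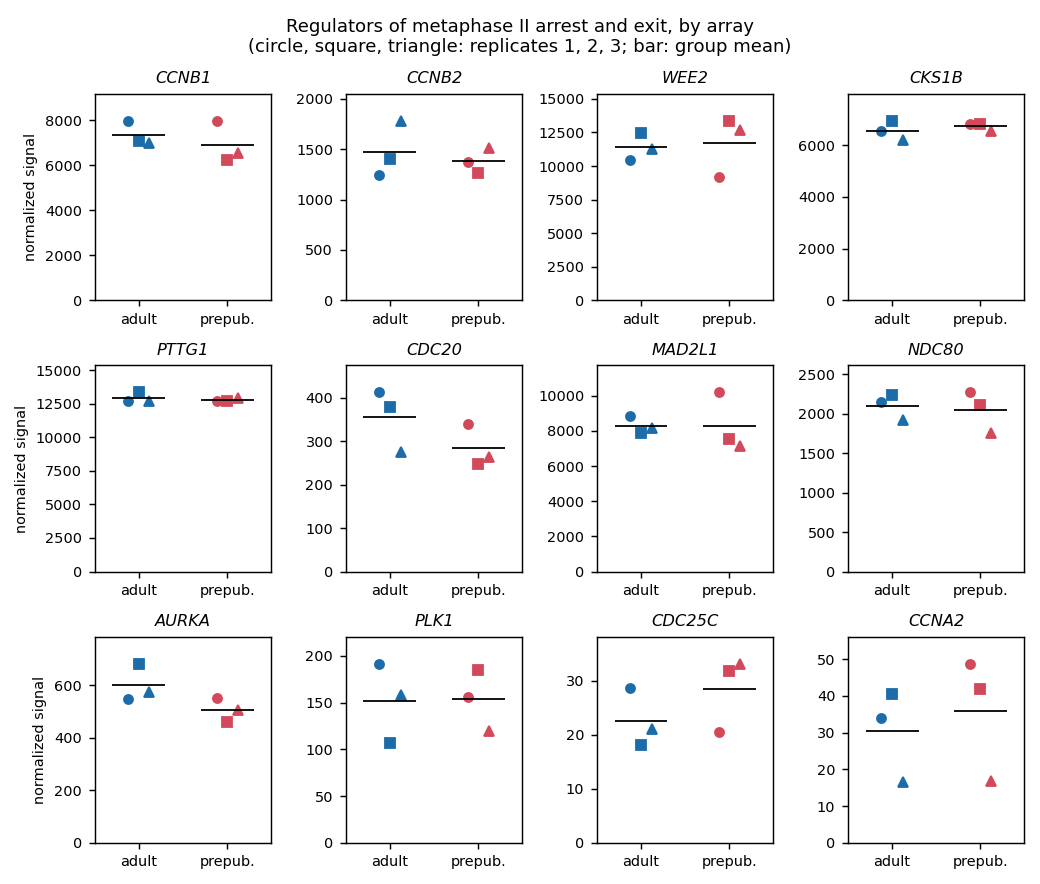
Quantile-normalized signal on each array for 12 regulators of metaphase II arrest and exit; symbols mark replicates 1, 2 and 3 and bars the group means, and every axis starts at 0. The groups overlap for each of the 12 shown, which are a selection. Left out are ANAPC4, BUB3, PKMYT1, RAD21 and NCAPD3, tested regulators from the list for description whose groups did not overlap. The overlap seen here is therefore not a rate for such regulators. Over all tested probe sets the groups did not overlap in 7.54% with higher and 8.77% with lower prepubertal values.

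Among kinases of the spindle, AURKA, the Aurora kinase of the spindle poles, had 549, 683 and 574 in adult and 551, 460 and 507 in prepubertal eggs. Prepubertal replicate 1 reached the lowest adult array, and the difference was -0.24 ± 0.14 (adjusted p = 0.56). As deposited it was -0.52, and the groups did not overlap. A dimmer AURKA probe set had a difference of 0.08 (adjusted p = 0.935). AURKB, the Aurora kinase of the chromosomal passenger complex, had 251, 278 and 269 on adult arrays, and prepubertal replicates 1, 2 and 3 had 223, 502 and 315. The prepubertal arrays lay on both sides of the adult range (0.29 ± 0.23, adjusted p = 0.678), and without prepubertal replicate 2 the difference was -0.0001.

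PLK1, the Polo-like kinase needed for spindle assembly and APC/C activation, had 192, 106 and 158 in adult and 156, 185 and 120 in prepubertal eggs (0.03 ± 0.22, adjusted p = 0.976). PLK3, a Polo-like kinase of stress responses, had 123, 87.9 and 125 in adult and 78.9, 63.8 and 32.6 in prepubertal eggs. The groups did not overlap, and the prepubertal mean was 1.92-fold lower. The difference of -0.82 ± 0.25 did not pass (adjusted p = 0.251). It was -1.03 without prepubertal replicate 1 (adjusted p = 0.0663) and -0.54 without prepubertal replicate 3 (0.557), and leaving out any other array gave an adjusted p of 0.358 to 0.571. The second PLK3 probe set stayed below the filter, and PLK2 was dim, with prepubertal replicate 3 at 3.22 and the other arrays at 14.5 to 32.1.

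The APC/C, the ubiquitin ligase that triggers anaphase, had 12 tested probe sets with its activator CDC20 and its target securin. Of these 8 lay below 0, against 51.1% of all tested (median -0.09, or -0.23 as deposited). ANAPC4, a subunit of the complex's platform, had 751, 850 and 689 in adult and 394, 529 and 526 in prepubertal eggs. All prepubertal arrays were below all adult ones. The means were 763 ± 81.0 and 483 ± 77.5 (SD, n = 3 arrays each). The prepubertal mean was 1.58-fold lower, at a difference of -0.65 ± 0.15 (limma adjusted p = 0.12). As deposited the difference was -0.93 (adjusted p = 0.0466), and leaving out any 1 of the arrays except prepubertal replicate 1 ended that call (adjusted p = 0.109 to 0.256). Without prepubertal replicate 1 it held as deposited (adjusted p = 0.0176).

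PTTG1, which encodes securin, the inhibitor of separase, was among the brightest members. Its normalized signals were 12693, 13342 and 12693 in adult and 12693, 12693 and 12946 in prepubertal eggs. Equal values arise because quantile normalization gives probe sets of equal rank the same value. As deposited the signals were 12853, 13474 and 12871 and 13057, 11830 and 12773. The groups overlapped, with a difference of -0.01 ± 0.06 (adjusted p = 0.957). The estimate moved with the scaling: as deposited the 95% interval ran from -0.29 to 0.17, and with a common trimmed mean the difference was 0.21, of the opposite sign.

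CDC20, which activates the APC/C and is held by the spindle checkpoint, had 412, 378 and 276 in adult and 339, 248 and 264 in prepubertal eggs. The ranges overlapped through prepubertal replicate 1 and adult replicate 3 (-0.30 ± 0.18, adjusted p = 0.574). ANAPC13, a small stabilizing subunit, had 137, 150 and 159 in adult and 181, 182 and 212 in prepubertal eggs, with no overlap (0.33 ± 0.16, adjusted p = 0.487; 0.08 as deposited). ANAPC1, the largest subunit, had differences of 0.07 and 0.10 in its 2 probe sets. ANAPC5, another platform subunit, had 3 dim tested probe sets, with differences of -0.67, -0.59 and -0.11 (adjusted p = 0.493, 0.493 and 0.90). The one with the smallest p had 29.6, 31.2 and 23.4 in adult and 10.3, 6.70 and 26.1 in prepubertal eggs, where prepubertal replicate 3 lay within the adult range. CDC26, ANAPC15 and ANAPC16 had differences of -0.10, -0.08 and 0.22, and ANAPC2 and CDC23 fell below the filter.

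In the spindle checkpoint, which delays anaphase until chromosomes are attached, BUB3 had the highest difference. BUB3 binds the kinetochore protein KNL1 and brings in other checkpoint proteins. Its signals were 349, 453 and 456 in adult and 823, 650 and 521 in prepubertal eggs. No prepubertal array was as low as an adult one, and their mean was 1.59-fold higher, with a difference of 0.63 ± 0.18 that did not pass the test (adjusted p = 0.203). As deposited it was 0.36, and the groups overlapped. MAD2L1, the checkpoint protein that holds CDC20, had 8826, 7868 and 8178 in adult and 10195, 7524 and 7145 in prepubertal eggs. The prepubertal arrays spread on both sides of the adult ones, at a difference of -0.02 ± 0.12 (adjusted p = 0.972). ZWILCH, part of the complex that recruits dynein and MAD proteins to kinetochores, had 213, 301 and 361 and 350, 287 and 350 (0.19, adjusted p = 0.743). These ranges overlapped. MAD2L2, a relative that acts mainly in DNA repair, had 30.0, 36.1 and 45.8 in adult and 34.1, 88.8 and 72.6 in prepubertal eggs in 1 probe set. Prepubertal replicate 1 lay within the adult range (0.55, adjusted p = 0.494), and the other probe set gave 0.08.

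Centromere and kinetochore genes, whose proteins tie chromosomes to microtubules, had a median difference of 0.11 over 7 tested probe sets (0.06 as deposited). CENPH, an inner kinetochore protein, had 450, 559 and 631 in adult and 644, 718 and 990 in prepubertal eggs. The groups did not overlap, although the highest adult and the lowest prepubertal array were nearly equal (0.50 ± 0.18, adjusted p = 0.332). With deposited values the difference was 0.22 and the groups overlapped. CENPI, another inner kinetochore protein, had 1383 to 1557 and 1152 to 1585 (-0.06, adjusted p = 0.913). As deposited its difference was -0.35, and all prepubertal arrays lay below all adult ones. NDC80, the outer kinetochore protein that grips microtubules, had 2145, 2240 and 1914 in adult and 2269, 2107 and 1760 in prepubertal eggs (-0.04 ± 0.12, adjusted p = 0.925). CENPO had 4995, 4446 and 3446 against 3309, 3578 and 3908, overlapping in the third adult array (-0.24 ± 0.13, adjusted p = 0.516). As deposited the CENPO difference was -0.50, and the groups did not overlap. CENPB, which binds centromeric DNA repeats, had 46.5, 32.7 and 46.0 against 37.4, 84.0 and 70.2 (0.43, adjusted p = 0.563). CENPF and CENPT were dim too and had differences of 0.45 and 0.11, with standard errors of 0.42 and 0.36.

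Cohesin holds sister chromatids together and condensin compacts them, and their measured subunits had differences of both signs. NCAPD3, a subunit of condensin II, had 50.2, 74.7 and 77.9 in adult and 156, 206 and 147 in prepubertal eggs. The lowest prepubertal array was well above the highest adult array. Group means were 67.6 ± 15.2 and 170 ± 31.9 (SD, n = 3 arrays each), 2.51-fold higher in prepubertal eggs, with a difference of 1.16 ± 0.20 (limma adjusted p = 0.052). As deposited the arrays read 60.5, 70.3 and 83.9 in adult and 156, 168 and 131 in prepubertal eggs, a difference of 0.94 (adjusted p = 0.0713). NCAPD3 passed 0.05 in 6 of 16 alternative settings, among them scaling to a common trimmed mean (adjusted p = 0.0489) and without prepubertal replicate 1 (0.0271), and leaving out any other array gave 0.107 to 0.216. NCAPD3 had no second member probe set, so the difference rests on 1.

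SMC4, an ATPase subunit shared by both condensins, was measured by 2 probe sets. Its brighter probe set had 365, 362 and 673 in adult and 618, 672 and 633 in prepubertal eggs. Adult replicate 3 was above every prepubertal array and the other 2 adult arrays below all of them, and the difference was 0.50 ± 0.21 (adjusted p = 0.399), or 0.79 without that array. The dimmer probe set had 73.9, 53.3 and 68.6 against 78.2, 93.5 and 91.2, without overlap (0.36 ± 0.19, adjusted p = 0.517). With deposited values the differences were 0.23 in the brighter and 0.17 in the dimmer probe set, and the groups overlapped in both. NCAPH2, the kleisin of condensin II, was dim, with no signal above 31.2 (-0.05, adjusted p = 0.957). RAD21, the cohesin subunit that separase cuts in mitosis, had 458, 430 and 409 in adult and 347, 330 and 258 in prepubertal eggs. All prepubertal arrays were below all adult ones (-0.46 ± 0.15, adjusted p = 0.303; -0.74 as deposited).

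**Figure D4:**
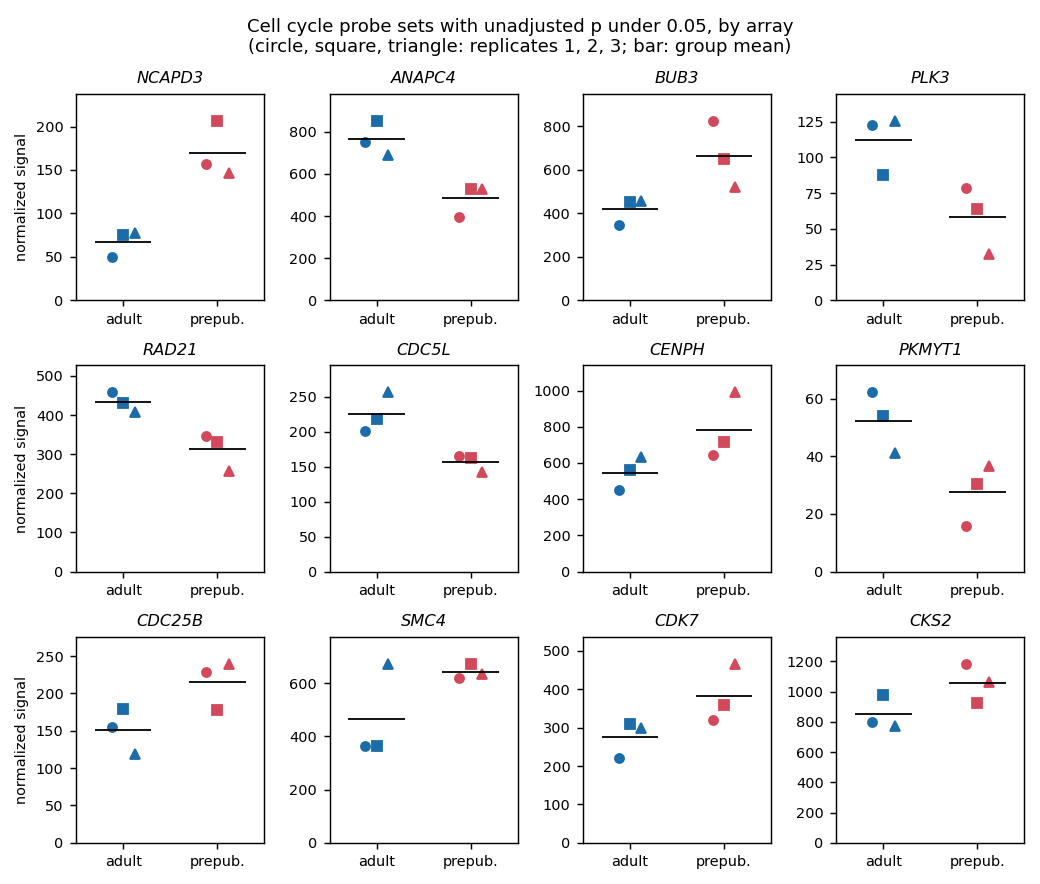
Quantile-normalized signal on each array for the 12 cell cycle probe sets with an unadjusted p under 0.05; symbols mark replicates 1, 2 and 3, bars the group means, and every axis starts at 0. Of the 12, NCAPD3 shows the widest gap between the groups in proportion to its signal, and CDC25B, SMC4 and CKS2 overlap.

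A further 13 genes matched the symbol rule although their products are known mainly for other work. Of their 17 tested probe sets 12 lay below 0, against 51.1% of all tested (median -0.11, or -0.29 as deposited). CDC5L, a component of the spliceosome, had 202, 218 and 256 in adult and 166, 162 and 143 in prepubertal eggs in 1 probe set, with no overlap (-0.48 ± 0.16, adjusted p = 0.314). In the other the ranges were 287 to 318 and 209 to 319 (-0.11, adjusted p = 0.87). CDC34, a ubiquitin-conjugating enzyme, had 395, 417 and 405 in adult and 408, 538 and 549 in prepubertal eggs, with prepubertal replicate 1 in the adult range (0.27, adjusted p = 0.529; -0.01 as deposited). CDC45, of the replicative helicase, lay at -0.17 in its brighter probe set (adjusted p = 0.785). A dim one had 23.9, 28.6 and 26.4 in adult and 34.9, 8.48 and 1.60 in prepubertal eggs, so prepubertal arrays lay on both sides (-0.59, adjusted p = 0.571). CDC123, which assembles the initiation factor eIF2, had 1896 to 2611 and 1989 to 2192, and CDK2AP1 had 1902 to 2210 and 1739 to 2220.

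Of the 94 probe sets 19 were too dim to test, with signals between 0.364 and 35.3, and for 10 genes no probe set was tested. Among these genes CCNB1IP1, a ligase of meiotic crossovers, had no signal above 13.4. For 12 genes with several tested probe sets, the probe sets shared a sign in 8 after quantile normalization and in 9 as deposited. AURKA, CDC123, CDK2 and CDK5RAP3 were the 4 that disagreed. The gap between probe sets of a gene was widest for ANAPC5, at 0.56 on the log2 scale, and for CDK2, at 0.52.

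The spread between arrays was also compared. The standard deviation of log2 values was larger in the prepubertal group for 48 of the 75 probe sets (64%), against 56.8% of all tested probe sets, with median values of 0.24 and 0.22 over the 75 and of 0.23 and 0.20 over all. Deviations of the 75 from their group mean had a standard deviation of 0.31, 0.25 and 0.29 on prepubertal replicates 1, 2 and 3 and of 0.22, 0.18 and 0.23 on adult replicates 1, 2 and 3. No test of this difference in spread was made.

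**Figure D5:**
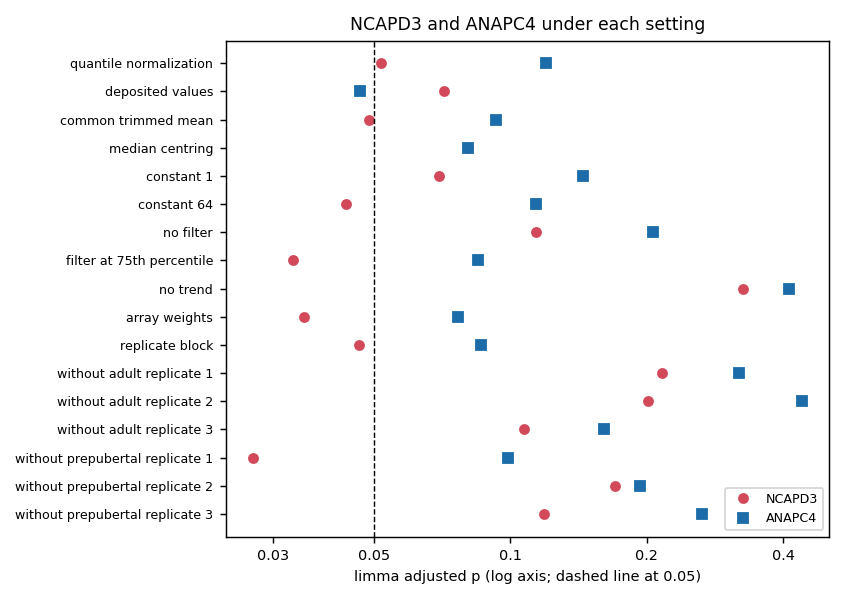
Limma adjusted p of NCAPD3 (circles) and ANAPC4 (squares) after quantile normalization and in 16 alternative settings, on a log axis with a dashed line at 0.05. NCAPD3 lies left of the line in 6 alternatives and ANAPC4 in 1, the deposited values. Under median centring the square covers the circle.

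Partners of these genes outside the symbol rule were read from separate lists. In each of the 5 lists 0 tested probe sets passed an adjusted p of 0.05 in limma in either direction (0.117% of all tested did). Of their 31 tested probe sets 2 had higher values at an unadjusted p under 0.05 (UBE2C and PPP2CA), against 5.05% of all tested. Lower values at that level were found in 1 (UBE2C), against 5.81% of all tested. UBE2C, the ubiquitin-conjugating enzyme that works with the APC/C, had probe sets at 0.46 and -0.45 (adjusted p = 0.211 and 0.375), so it has no single direction. In that list TRIP13, which remodels MAD2, had a difference of 0.24 (adjusted p = 0.636). Among 5 tested probe sets of the chromosomal passenger complex and the guards of centromeric cohesion, PPP2R1A lay at 0.45 (adjusted p = 0.494) and PPP2R5C, another phosphatase subunit gene, at -0.49, -0.22 and 0.02. Signs in these lists are to be read against 51.1% of all tested probe sets below 0. Of 8 for outer kinetochore partners 7 lay above 0 (median 0.12, or -0.11 as deposited), with PMF1 at 0.54 and NSL1 at 0.17 and 0.22. Among 4 for cohesin regulators and the meiotic axis, HORMAD1, an axis protein of meiotic prophase, lay at 0.40 (adjusted p = 0.518), and ESCO1, a cohesin acetyltransferase, at -0.18. Of 10 for the MAPK arm of metaphase II arrest and the Greatwall pathway 7 lay above 0 (median 0.17; -0.07 as deposited). There the phosphatase subunit gene PPP2CA lay at 0.37 and -0.15 in its 2 probe sets and PPP2CB at 0.17.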

How the data were processed

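The authors deposited MAS5 signal intensity values on a linear scale, 1 per probe set and array, per the submitters' processing notes. RNA with poly(A) tails went through 2 amplification cycles before biotin labelling, per the labels' protocols. For MAS5, version and scaling target: not given in the sources used here. Unmatched value columns numbered 0. Of 24123 probe sets the 124 controls were left out. The rest were quantile-normalized, because the deposited arrays differed in level. After adding 16 and taking log2, probe sets at or above the median mean (12000) were tested with limma 3.58.1 in R 4.3.3 (lmFit, eBayes with intensity trend), prepubertal minus adult, 2-sided, Benjamini-Hochberg adjusted over all 12000, threshold 0.05. All p-values are from this fit unless another setting is named. Members, lists and the naming rule were chosen with earlier results of these data known. Named were members past the threshold in either fit, the 20 genes with the smallest p, the 2 with the smallest p in each role list, and fixed regulators. Symbols came from the platform annotation, and all 94 equalled RefSeq's symbol for their Entrez identifier in Sscrofa11.1. Genome positions are left out, since no build comes with the signals. Role groups were set by hand. Same-numbered arrays were not treated as pairs in the main fit, and their deviations from group means correlated at 0.02 to 0.08. Alternatives were other normalizations, constants, filters, variance models, array weights, a replicate block and leaving out each array; leaving out arrays with the deposited values was chosen after seeing the data. Simulated data served to test the fit. Precision is limited by having 3 arrays a group.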

Additional observations from a re-analysis of the deposited data

How the results depend on the processing

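The count of members past an adjusted p of 0.05 was 0 in limma after quantile normalization, with 12 at an unadjusted p under 0.05. It was 1 with deposited values (ANAPC4) and 1 (NCAPD3) with a common trimmed mean, a constant of 64, a filter at the 75th percentile, array weights or the replicate number as a block. It was 0 to 1 when 1 array was left out, and 0 to 6 when this was done with deposited values. The 6 without prepubertal replicate 1 were PLK3, ANAPC4, ANAPC5, CDC5L, RAD21 and NCAPD3. No share over all tested probe sets is given for those fits with deposited values, so the 6 cannot be set against a background. Over all tested probe sets 14 passed (0.117%). The count was 57 with deposited values (0.475%), 20 with a common trimmed mean (0.167%) and 7 with median centring (0.0583%). A constant of 1 gave 2 (0.0167%), no filter 2 (0.00833% of those then tested) and a constant of 64 gave 28 (0.233%). The 75th percentile gave 55 (0.917% of those then tested) and array weights 84 (0.7%). Without trend 0 passed (1173 at an unadjusted p under 0.05). With 1 array left out 0 to 202 passed. The most passed without prepubertal replicate 1 (1.68%) and none without adult replicate 2 (928 at an unadjusted p under 0.05). With the replicate number as a block the count was 33 (0.275%), with NCAPD3 at an adjusted p of 0.0464. Whether same-numbered arrays share more than a number is not known here. Adult replicates 1 and 2 and prepubertal replicates 1 and 3 correlated best with their own number. Adult replicate 3 and prepubertal replicate 2 did not. The median difference of the members moved from -0.02 to -0.20 with deposited values, 0.0287 with a common trimmed mean and -0.1132 with median centring, as did that of all tested probe sets (-0.20, 0.02 and -0.11).

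Of 33 named members 21 kept their sign in each alternative that tested them. PKMYT1, ANAPC5, MAD2L2, CENPB, CDC25C and CCNA2 were tested in 15 of the 16 and CDC45 in 14. The other 12 changed sign in at least 1, and the cause was not tested. With deposited values these were CDC34 (-0.0109), ZWILCH (-0.0757), CKS1B (-0.1156), WEE2 (-0.014) and PLK1 (-0.217). With a common trimmed mean they were CCNB1 (0.034), PTTG1 (0.2091) and MAD2L1 (0.1408), with median centring CKS1B (-0.0309), PTTG1 (0.026) and PLK1 (-0.1324), and with array weights CCNA2 (-0.0308). With 1 array left out ZWILCH ranged from -0.0063 to 0.3532, WEE2 from -0.0767 to 0.1938, MAD2L1 from -0.1752 to 0.0808, NDC80 from -0.1208 to 0.061, PTTG1 from -0.0264 to 0.0095, PLK1 from -0.1822 to 0.2006, CCNB2 from -0.1923 to 0.0602, CCNA2 from -0.0946 to 0.442 and AURKB from -0.0001 to 0.5561. Standard errors were larger for dim probe sets, in a fit whose intensity trend itself lets the variance follow brightness.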
